A study of Mus musculus with 29 samples.

Results

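Mammary fat of formerly obese mice was compared with that of lean mice by RNA sequencing. The comparison takes every library whose treatment label is LFD (5 libraries) or Control (5 libraries), which is 10 of the 29 libraries of the study, and all genes of the expression table. LFD mice were wild-type C57BL/6N mice that became obese on the diet D12492, with 60% fat, and were then moved to a low-fat diet that they could eat without restriction. Obese mice (5 libraries), set beside LFD here, had the same high-fat feeding and remained obese. They are other mice, sampled at the study's endpoint. LFD minus Obese is therefore not a change from a level measured before the low-fat diet. Control mice received the control diet D12450J. Mice of every group were injected in week 25 with E0771 cells, a mouse mammary cancer line, in mammary gland 4, and the tissue sequenced was gland 9, on the opposite side, at the study's endpoint. All 3 groups therefore received cancer cells, and tumor growth in each mouse was not used here. The titles of the libraries begin with "tumor" and the labels name the cell line, whereas the tissue field and the source name give normal mammary tissue. The comparison asks what of the obese state was still measurable after unrestricted low-fat feeding. Body weight, age and the length of low-fat feeding were not used here.

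White fat stores triglyceride in adipocytes, which secrete the hormones leptin and adiponectin. Leptin rises with fat mass, and in mice the imprinted gene Mest is known to rise as fat cells enlarge. In obese fat, macrophages gather around overloaded or dying adipocytes, take up lipid and express genes such as Trem2, Mmp12 and Itgad. Fat cells also make fatty acids from sugar with enzymes such as fatty acid synthase, a route that high-fat feeding is known to lower. The mammary fat pad holds milk duct epithelium and a lymph node besides fat, so that RNA of these tissues enters each library. From such bulk tissue, fewer cells of a type and less RNA per cell cannot be told apart.

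The values given below as counts are normalized counts, obtained by undoing the variance-stabilising transform of the deposited log2 values, and every difference is on the log2 scale of the deposited values. The 5 LFD libraries held 18170682 to 40624090 reads and the 5 Control libraries 16949981 to 39605294. Pearson correlations between libraries of a group, over genes, ran from 0.946 to 0.988 in LFD and from 0.959 to 0.988 in Control. Animal numbers differ between all titles, so each library was treated as a separate mouse, and p-values reflect only the variation among them.

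Adipoq, which encodes adiponectin and marks adipocytes, was abundant in all 10 libraries. Libraries differed in the other tissues they held. The B cell list, of 14 genes, had means of 5.97, 11.66, 11.67, 11.04 and 11.62 in LFD 1 to 5 and of 12.24, 12.69, 11.98, 11.39 and 12.02 in Control 1 to 5. LFD 1 held far less lymphoid RNA than the other LFD and all Control libraries. Obese 1 and Obese 5 were as low, with B cell list means of 6.27 and 6.59. The skeletal muscle list, of 15 genes, had means of 7.84 in LFD 1, 7.11 in LFD 3 and 10.10 in LFD 5, and lay between 5.19 and 5.45 in the other LFD and all Control libraries. Muscle RNA was thus high in 3 of the 5 LFD libraries and in none of the Control libraries. Obese 2 was higher still, at 11.13. The luminal epithelium list, of 20 genes, ran from 10.22 to 12.06 in LFD, 9.80 to 10.31 in Obese and 10.14 to 11.35 in Control.

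**Figure D1:**
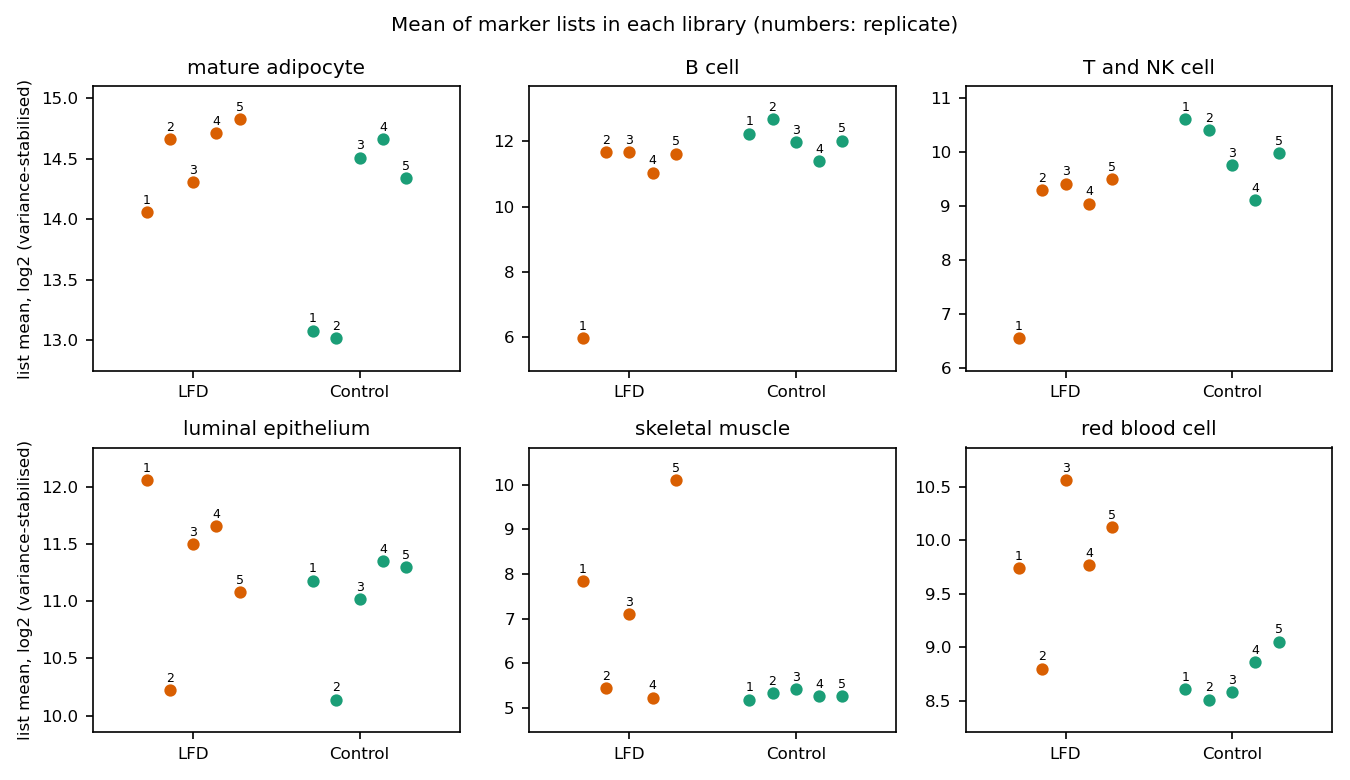
Mean of 6 marker lists in each library (vertical axis, log2 variance-stabilised value; 1 point per library, numbered by replicate; LFD left, Control right). LFD 1 is far below the other libraries for B cell and T and NK cell genes, and LFD 1, 3 and 5 are above all Control libraries for skeletal muscle genes.

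No gene passed the test between LFD and Control. Of 19387 genes tested with limma, 0 had an adjusted p under 0.05 (0% of the genes tested), and the smallest adjusted p was 0.394. At an unadjusted p under 0.05 there were 2425 genes, 12.5% of those tested, with 1330 higher in LFD (6.86%) and 1095 lower (5.65%). The voom test on recovered reads also called 0 genes, with 2270 at an unadjusted p under 0.05. The count of 0 held under all 24 other settings tried, with smallest adjusted p-values from 0.144 without Control 4 to 0.709 without Control 2. The unadjusted count depended on single libraries, at 905 without Control 2, 1212 without Control 1, 1395 without LFD 1 and 3867 without Control 4. It was 1547 with the B cell list mean as a covariate and 1396 with the luminal list mean.

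A count of 0 does not show that the groups were alike. The intervals given here are per gene and not adjusted for the number of genes, so they do not give the difference that a call needed. Crtac1, described below, differed by 1.50 ± 0.38 and was not called (adjusted p = 0.394). They are also on a scale that understates differences of low genes. The 95% interval of the difference reached 0.35 log2 to either side in the median gene, and it lay wholly within 1 log2 of 0 for 16067 genes (82.9%). The median difference of all genes tested was 0.01, and 9883 genes (51%) lay above 0. In 528 genes (2.72%) the groups did not overlap, with all 5 LFD libraries above all 5 Control libraries in 224 (1.16%) and below them in 304 (1.57%).

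The same fit called 2496 genes between Obese and Control (12.9% of 19387), 1830 higher in Obese (9.44%) and 666 lower (3.44%). Between LFD and Obese it called 1159 genes (5.98%), 524 higher in LFD (2.7%) and 635 lower (3.28%). LFD minus Control and Obese minus Control share the Control libraries, and LFD minus Control and LFD minus Obese share the LFD libraries, so the comparisons are given side by side and are not independent. The Obese minus Control count was 1357 without Control 1, 1534 without Control 5, 1090 without Obese 1 and 1184 without Obese 5. The LFD minus Obese count was 621, 456 and 623 without LFD 3, LFD 4 and LFD 5, and 507, 711, 731 and 696 without Obese 1, 2, 3 and 5. It was 9 with the luminal list mean as a covariate, 171 without LFD 1, Obese 1, Obese 5 and the other libraries low in B cell genes, and 140 in a fit of the LFD and Obese libraries alone.

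Mest, Sfrp5, Lep and Peg10, genes of fat expansion, averaged closer to Control than to Obese in LFD, and Mest and Sfrp5 kept the wider differences from Control. These genes were chosen because Obese differed in them from Control or from LFD, so their differences from Obese are a description. Mest, an imprinted gene of the hydrolase family that marks expanding fat (chromosome 6, from 30723547 to 30748465, GRCm38), had 4555, 4555, 1584, 868 and 2895 counts in LFD 1 to 5, against 31307, 24140.5, 28065, 13767 and 31645 in Obese and 400.2, 1642, 2367, 443 and 327 in Control. Every LFD library lay below every Obese library, and LFD and Control overlapped: LFD 3 and LFD 4 lay below Control 3. The LFD minus Control difference was 1.66 ± 0.69 (SE; 95% interval 0.24 to 3.07; adjusted p = 0.394), and the LFD minus Obese difference was -3.34 ± 0.69 (adjusted p = 0.00589). In the 4 lanes that held a library of each group, the LFD library was the higher in 3, with differences from -0.57 to 3.42. Here and below, these lanes leave out LFD 5 and Control 4. The LFD minus Obese call was lost with the luminal covariate and without the libraries low in B cell genes (adjusted p up to 0.593).

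Sfrp5, a secreted antagonist of Wnt signals made by fat cells (chromosome 19, from 42197971 to 42202252), had 6335, 4889, 1876, 408 and 625 counts in LFD, 25435, 13463, 9825, 8125 and 24935 in Obese, and 159, 1335, 1205, 415 and 189.6 in Control. LFD 1, 2 and 3 were above all Control libraries, and LFD 4 and 5 were within the Control range. The difference from Control was 1.83 ± 0.75 (95% interval 0.30 to 3.37; adjusted p = 0.394), and it was positive in all 4 lanes (0.63 to 5.11). LFD minus Obese was -3.06 (adjusted p = 0.0163), a call that was lost without LFD 4, LFD 5 or Obese 1 (adjusted p up to 0.0653), with the luminal covariate, in the fit of these groups alone and without the libraries low in B cell genes (up to 0.686).

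Lep, the gene of leptin (chromosome 6, from 29060220 to 29073877), had 22191, 41848, 13233, 5516 and 6491 counts in LFD, 146334, 89864, 88661, 54354 and 143078 in Obese and 5726, 15068, 19224, 14509 and 3863 in Control. LFD 1 and 2 lay above all Control libraries, the other 3 within their range, and all 5 lay below every Obese library. The difference of LFD from Control was 0.45 ± 0.53 (95% interval -0.63 to 1.53; adjusted p = 0.615), so that a rise of up to 1.53 is within the error of these libraries. LFD minus Obese was -2.86 ± 0.53 (adjusted p = 0.00256), and the call was lost with the luminal covariate (0.517).

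**Figure D2:**
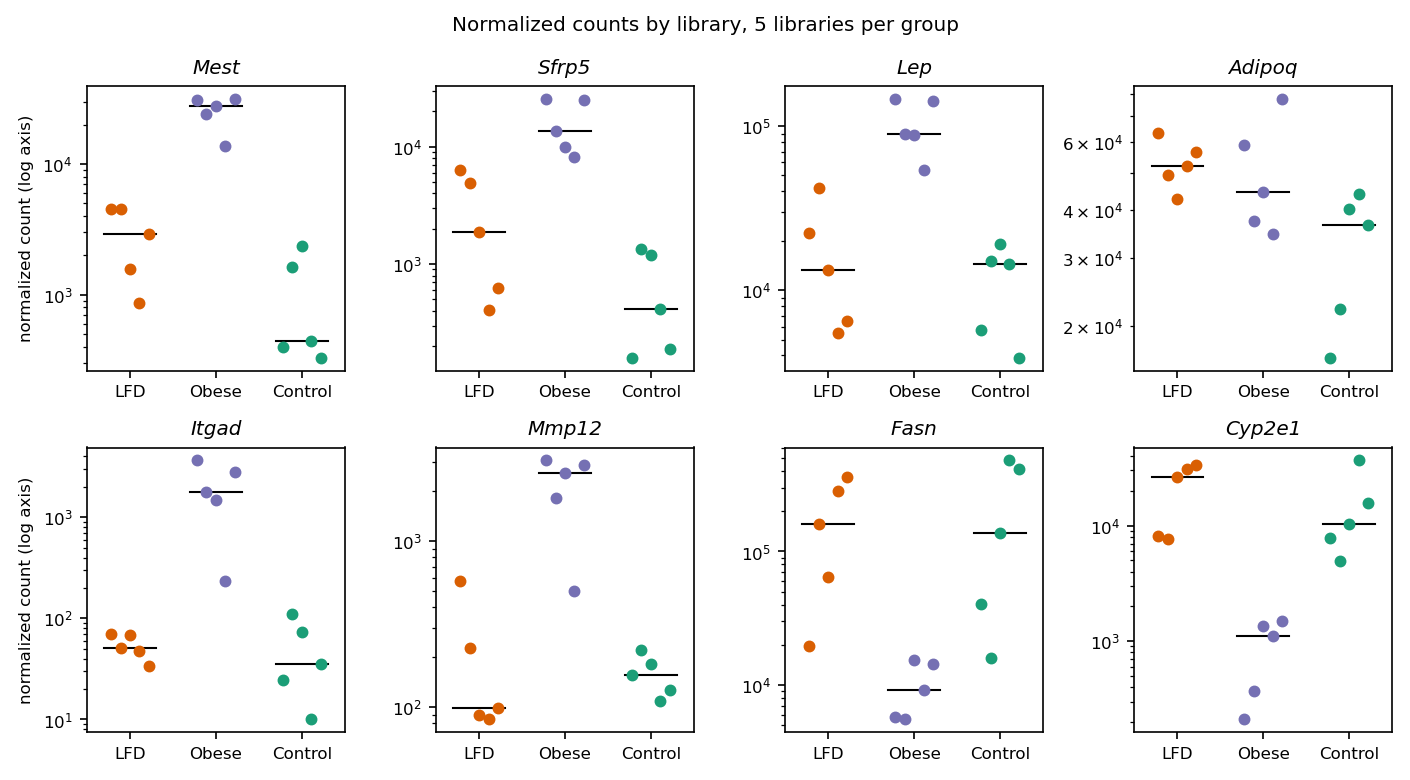
Normalized counts (log axis) of 8 genes in the 5 LFD, 5 Obese and 5 Control libraries, left to right; each point is 1 library and the black line is the group median. LFD and Control points overlap in all 8 genes, while LFD lies apart from Obese for Mest, Sfrp5, Lep, Itgad, Fasn and Cyp2e1.

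Peg10, another imprinted gene, had 1539.8, 565, 595, 247 and 271 counts in LFD, 12752, 13254, 2483, 1017 and 9332 in Obese and 150.3, 863, 312, 268 and 196 in Control. LFD 1 was the highest of the LFD and Control libraries, and the others overlapped. Its LFD minus Control difference was 0.75 (95% interval -0.49 to 1.99) and LFD minus Obese -3.29 (adjusted p = 0.00255). The kinase gene Cdkl4 and Unc79, a subunit of a sodium leak channel, kept intervals above 0 between LFD and Control, at 1.03 (0.16 to 1.90) and 0.83 (0.01 to 1.66), both with an adjusted p of 0.394. In Cdkl4 the LFD libraries had 482, 184, 83.6, 40.2 and 56.3 counts and the Control libraries 41.2, 67.4, 56.2, 45.8 and 26.3, so that LFD 1, 2 and 3 were the highest. Tph2, a tryptophan hydroxylase, and Gabrr2, a GABA receptor subunit, differed from Control by 0.42 and 0.24, and both intervals held 0.

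Over the 13 genes chosen as higher in Obese, which are these 8 genes and the 5 macrophage genes described next, LFD minus Control ran from 0.02 to 1.83. Its 95% interval lay above 0 in 4 (Mest, Sfrp5, Cdkl4 and Unc79) and held 0 in the other 9. LFD minus Obese ran from -4.26 to -0.64 and was called in 12, beside 3.28% of all genes called lower in LFD. Because the genes were chosen on the Obese libraries, nothing is read from that count. Of the white fat expansion list, whose 15 members include several of these genes, 0 were called between LFD and Control, 6 had an unadjusted p under 0.05 with LFD higher (6.86% of all genes), and the median difference was 0.61, beside 0.01 for all genes tested. Its members differed from Control by 0.42 to 1.83 and from Obese by -3.34 to -0.18, so that not all lay closer to Control, and 6 were called lower in LFD than in Obese. The list's mean in LFD 1 to 5 was 11.93, 11.79, 11.09, 10.62 and 10.83, against 9.81, 10.75, 11.12, 10.52 and 10.04 in Control, so that LFD 1 and 2 were above all Control libraries and LFD 3, 4 and 5 were not.

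**Figure D3:**
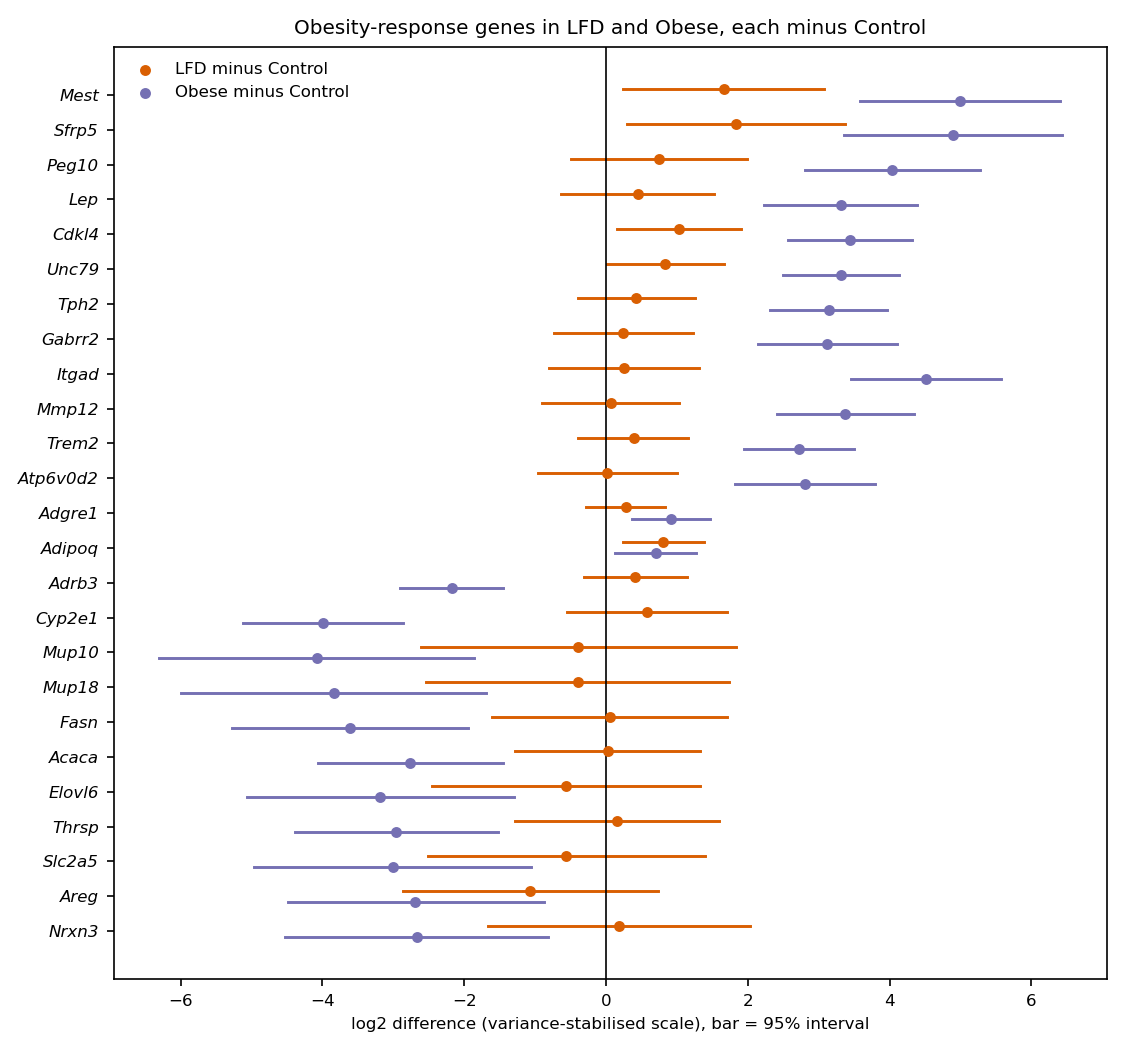
Log2 difference from Control (horizontal axis) of LFD (orange) and Obese (purple) for 25 genes, with bars for the 95% interval. For Itgad the LFD difference is 0.25 and the Obese difference 4.52, and for Cyp2e1 they are 0.58 and -3.99; both sets of differences use the same Control libraries.

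Genes of lipid-laden macrophages had counts in or near the Control range in LFD, apart from LFD 1. In Mmp12, Trem2 and Atp6v0d2, LFD 1 lay above all Control libraries and above Obese 4. Itgad, an integrin subunit of macrophages (chromosome 7, from 128154376 to 128223816), had 70.1, 51.1, 68.9, 47.7 and 33.8 counts in LFD, 3648, 1778, 1474, 234 and 2801 in Obese and 24.7, 110.3, 72.5, 10 and 35.3 in Control. All LFD libraries lay within the Control range and below every Obese library. LFD minus Control was 0.25 ± 0.51 (95% interval -0.80 to 1.31), and LFD minus Obese was -4.26 ± 0.51 (adjusted p = 6.11e-05). The sign of the LFD minus Control difference turned with lane as a term (-0.09) and without Control 4 (-0.01).

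Mmp12, the macrophage elastase, had 579, 227, 90.2, 84.5 and 98.8 counts in LFD, 3060.1, 1822, 2586, 503 and 2877 in Obese and 157, 221, 181, 109 and 127 in Control. LFD 1 stood above all Control libraries, and LFD 3, 4 and 5 stood below them. The differences were 0.07 ± 0.47 from Control (95% interval -0.90 to 1.03), or -0.35 without LFD 1, and -3.31 from Obese (adjusted p = 0.000299). Trem2, the lipid receptor of these macrophages, had 177, 84.6, 42.6, 56.9 and 45 counts in LFD, 811, 534, 581, 126 and 609 in Obese and 33.6, 77.6, 99.7, 45 and 20.5 in Control. Its differences were 0.39 from Control (95% interval -0.39 to 1.16) and -2.33 from Obese (adjusted p = 0.00115). LFD 1 was again the highest of the 10 LFD and Control libraries. Atp6v0d2, a subunit of the lysosomal proton pump, had 341, 96.1, 50.8, 57.7 and 41 counts in LFD, 1394, 1041, 1060.3, 149 and 941 in Obese and 85.1, 111, 165, 75 and 34.5 in Control. It differed from Control by 0.02, a sign that turned under several settings, and from Obese by -2.78 (adjusted p = 0.00152).

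Adgre1, the antigen F4/80 found on most macrophages, averaged 1241 ± 332 counts in LFD and 1031 ± 327 in Control (SD, n = 5 each). The 2 groups overlapped, with a difference of 0.28 (95% interval -0.28 to 0.83). Against Obese the difference was -0.64 (adjusted p = 0.173). Of 17 macrophage genes 0 were called between LFD and Control, 10 lay above 0 and the median was 0.05, or 0.01 without LFD 1. Lyz2, lysozyme, was the member with the smallest p, at 10428, 16142, 16136, 15730.2 and 16081 counts in LFD and 25573, 37312, 20788, 18048 and 18926 in Control. Every LFD library was below every Control library (-0.66 ± 0.29, adjusted p = 0.394). Of 18 lipid-associated macrophage genes the median difference was 0.17 from Control (0.08 without LFD 1) with 0 called, and 7 were called lower in LFD than in Obese with a median of -0.62, beside 3.28% of all genes. The obesity-response genes among them were chosen on the Obese libraries.

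Luminal epithelium RNA averaged higher in LFD than in Obese, though the list mean of LFD 2 (10.22) lay within the Obese range (9.80 to 10.31). Of 20 luminal genes, 14 were called higher in LFD than in Obese, with a median of 1.24, beside 2.7% of all genes. The luminal list mean therefore cannot be told apart from the group, and its part in the LFD minus Obese differences was not tested. With that mean as a covariate, the calls of the following genes were lost, and each difference but that of Cdkl4 was smaller. Trem2 went from -2.33 to -2.21 (adjusted p = 0.216), Mmp12 from -3.31 to -3.04 (0.132) and Peg10 from -3.29 to -2.81 (0.382). Cdkl4 went from -2.41 to -2.54 (0.195), Unc79 from -2.48 to -1.96 (0.305) and Tph2 from -2.71 to -1.90 (0.294). Gabrr2 went from -2.88 to -2.03 (0.407) and Atp6v0d2 from -2.78 to -2.59 (0.260). Mest went from -3.34 to -2.50, Lep from -2.86 to -1.99, Sfrp5 from -3.06 to -2.23 and Dennd4a from -0.84 to -0.33. The calls of Itgad (-3.98) and Cyp2e1 (4.01) were not lost under that setting or any other tried. The fit of the LFD and Obese libraries alone also ended the calls of Trem2, Peg10, Cdkl4, Tph2 and Atp6v0d2.

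Fasn, Acaca, Elovl6, Slc2a5 and Thrsp, genes of fatty acid synthesis or sugar uptake for it, varied widely within LFD and within Control. Fasn, the fatty acid synthase (chromosome 11, from 120805846 to 120824547), had 19683, 159290.0, 64904, 284163 and 363446 counts in LFD, 5726, 5526, 15363, 9256 and 14415 in Obese and 40610.0, 16051, 136742, 480368 and 416800.2 in Control. LFD 4 and 5 and Control 4 and 5 were the high libraries, and LFD 1 and Control 1 and 2 the low ones. The high libraries were in lanes 1, 2 and 3 and the low ones in lanes 5 and 6, though LFD 2, with 159290.0, was also in lane 5. In both groups animal numbers rose as lane numbers fell, so lane and animal order cannot be told apart. LFD minus Control was 0.05 ± 0.81 (95% interval -1.61 to 1.71), from -0.65 without Control 2 to 0.69 when other single libraries were left out. All LFD libraries stood above all Obese libraries, with a difference of 3.66 ± 0.81 (adjusted p = 0.00911), and that call was lost with the luminal covariate and in the fit of these groups alone (adjusted p up to 0.466).

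The same libraries were high for other genes of this route. Acaca, the acetyl-CoA carboxylase, had 10655, 27165, 16529.6, 54157 and 73187 counts in LFD and 10509, 5282, 38323, 99055 and 81968 in Control, a difference of 0.03 (95% interval -1.28 to 1.33). Elovl6, a fatty acid elongase, and Slc2a5, the fructose transporter, each differed by -0.56, with 95% intervals from -2.45 to 1.33 and from -2.51 to 1.39. Thrsp, a regulator of fatty acid synthesis, differed by 0.16 (95% interval -1.28 to 1.59). For these 4 genes, too, LFD 4 and 5 were the highest LFD libraries, as Control 4 and 5 were the highest of Control. The list of 25 fatty acid synthesis genes tested had means of 11.59, 12.43, 11.89, 13.00 and 13.30 in LFD, against 11.57, 11.12, 12.48, 13.72 and 13.42 in Control and 11.03 to 11.69 in Obese. Its median difference was -0.01 (0.21 without LFD 1), with 12 members above 0, and no member reached an unadjusted p under 0.05. Fads1, a fatty acid desaturase and the member with the smallest p, varied little within LFD, at 4590.3, 4843, 4129.9, 4919.6 and 4741 counts, against 3342, 2148, 3709.6, 4938 and 3391 in Control. Every LFD library was above every Control library but Control 4, with a difference of 0.45 ± 0.26 (95% interval -0.09 to 0.99; adjusted p = 0.406).

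Cyp2e1, a cytochrome P450 that oxidises ethanol and fatty acids (chromosome 7, from 140763739 to 140774987), had 8090.4, 7618, 26134, 30965 and 33234 counts in LFD, 210.3, 369.8, 1341, 1118 and 1497 in Obese and 7774, 4912, 10223, 36618 and 15636 in Control. LFD and Control overlapped, and Obese lay below both. LFD minus Control was 0.58 ± 0.55 (95% interval -0.55 to 1.70), and LFD minus Obese was 4.57 (adjusted p = 6.11e-05). The LFD library was the higher in all 4 lanes with both groups. Those lanes leave out Control 4, the highest of the LFD and Control libraries for this gene. Adrb3, the adrenergic receptor through which fat breakdown is triggered, had 5042, 7587, 7065, 12036 and 12538 counts in LFD and 3876, 3596, 8996, 7265 and 10646 in Control. Its difference from Control was 0.41 (95% interval -0.31 to 1.14) and from Obese 2.60 (adjusted p = 0.000221, or 0.184 with the luminal covariate).

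Among the 11 genes chosen as lower in Obese, the SE of LFD minus Control was largest in the major urinary protein genes Mup10 (1.08) and Mup18 (1.04), which belong to a family of near-identical copies whose reads cannot be placed with certainty. Mup10 had 218, 164, 389, 7210.4 and 7805 counts in LFD and 487, 245, 873, 10013 and 3277 in Control. LFD 4 and 5 and Control 4 and 5 were again the high libraries, and the difference was -0.39 with a 95% interval from -2.61 to 1.84. Its call against Obese (3.70, adjusted p = 0.0414) was lost under 6 of the other settings and when single libraries were left out. Areg, an epithelial growth factor, and Nrxn3, a neurexin, differed from Control by -1.07 (95% interval -2.87 to 0.73) and 0.18 (-1.67 to 2.03). Over the 11 genes chosen as lower in Obese, LFD minus Control ran from -1.07 to 0.58, every 95% interval held 0, and 7 were called higher in LFD than in Obese (1.61 to 4.57 over all 11), beside 2.7% of all genes. Because these genes, too, were chosen on the Obese libraries, nothing is read from the count of 7.

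Adipocyte genes were on average above Control in LFD, though none was called. Adipoq (chromosome 16, from 23146536 to 23158028) had 63541, 49202, 42737, 51987 and 56683 counts in LFD, 58948, 37384, 44549, 34606 and 77646 in Obese and 16533, 22145, 40128, 44071 and 36496 in Control. Control 1 and 2 were the lowest of the 15 libraries. LFD 3 lay below Control 4, a library outside the 4 lanes shared by LFD and Control. LFD minus Control was 0.81 ± 0.28 (95% interval 0.24 to 1.38; adjusted p = 0.394), positive in all 4 lanes (0.09 to 1.94), while LFD minus Obese was 0.12 (adjusted p = 0.894). Cidec, a lipid droplet protein, had 37445, 36469, 46051, 39497 and 41772 counts in LFD and 13357, 13825, 31784, 36569 and 22927 in Control (0.88, 95% interval 0.28 to 1.47). Fabp4, a fatty acid carrier chosen here after its values were seen, had 228436 to 289449.5 counts in LFD and 82561 to 208105 in Control, with no overlap (0.86, 95% interval 0.27 to 1.46).

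All 22 mature adipocyte genes lay above 0, 13 of them at an unadjusted p under 0.05 (6.86% of all genes were higher at that level), with a median of 0.67 beside 0.01 for all genes. The list mean was 14.06, 14.66, 14.31, 14.71 and 14.83 in LFD and 13.08, 13.02, 14.51, 14.66 and 14.34 in Control, so that Control 1 and 2 stood apart and the other 3 Control libraries lay within the LFD range. The T and NK cell list mean ran from 6.56 to 9.50 in LFD, and in Control it was highest in those same 2 libraries, at 10.62 and 10.41, with 9.11 to 9.99 in the other 3. With the B cell list mean as a covariate the adipocyte median was 0.49, and without LFD 1 it was 0.75. The part of lymphoid content in the adipocyte difference was not tested further. Between Obese and Control, 8 of the 22 were called higher (9.44% of all genes) and 2 lower (3.44%). Between LFD and Obese 1 was called higher, a share near the 2.7% of all genes.

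Genes for using fat and for respiration followed the same pattern at smaller size. Pparg, the master regulator of fat cells, differed by 0.70 (95% interval 0.14 to 1.26). Of 21 fatty acid oxidation genes 20 lay above 0 (median 0.37), of 20 triglyceride and lipolysis genes 19 (0.39), of 21 citrate cycle genes 21 (0.23) and of 40 oxidative phosphorylation genes 39 (0.19). Without LFD 1 the triglyceride and lipolysis median was 0.59 and the oxidative phosphorylation median 0.33. No member of these lists was called between LFD and Control. In the oxidative phosphorylation list Ndufb3, a complex I subunit, had 1522, 1576, 1312, 1738 and 1777 counts in LFD and 858, 840.3, 1462, 1565 and 1466 in Control, where Control 1 and 2 were again the low libraries (0.39, 95% interval 0.03 to 0.76). Of 14 thermogenic genes 13 lay above 0, with a median of 0.33 from Control, or 0.63 without LFD 1. From Obese the thermogenic median was 0.89, and 3 were called higher in LFD, beside 2.7% of all genes.

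Red blood cell genes were the list with the largest share of members whose groups did not overlap, all of them globin genes. Their RNA comes from reticulocytes, the young red cells that still carry RNA, and from red cell precursors. To show what the members share, the promoter windows of 3 of them are given from RefSeq (GRCm38.p6), each covering 250 bases before and 50 bases after the gene's start in RefSeq, 5′ to 3′. For Hba-a1 that start is not the GENCODE start given with its counts below. Capitals mark the GATA motif AGATAA, whose first letter may also be T and whose last may also be G, known to be bound by the red cell factor GATA1. They also mark CACCC, bound by the red cell factor KLF1, and each motif was searched on both strands, where the motifs do not overlap each other. The windows are Hba-a1, alpha globin, at chr11:32283422-32283721 on the plus strand, Hbb-bs, beta globin, at chr7:103827879-103828178 on the minus strand, and Alas2, the heme synthesis enzyme of red cells, at chrX:150547167-150547466 on the plus strand.
Hba-a1: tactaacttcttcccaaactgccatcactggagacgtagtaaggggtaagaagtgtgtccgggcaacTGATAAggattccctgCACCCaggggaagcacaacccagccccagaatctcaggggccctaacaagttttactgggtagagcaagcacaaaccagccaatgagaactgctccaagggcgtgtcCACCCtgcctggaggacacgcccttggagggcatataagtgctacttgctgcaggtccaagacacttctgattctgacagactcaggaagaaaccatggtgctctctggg
Hbb-bs: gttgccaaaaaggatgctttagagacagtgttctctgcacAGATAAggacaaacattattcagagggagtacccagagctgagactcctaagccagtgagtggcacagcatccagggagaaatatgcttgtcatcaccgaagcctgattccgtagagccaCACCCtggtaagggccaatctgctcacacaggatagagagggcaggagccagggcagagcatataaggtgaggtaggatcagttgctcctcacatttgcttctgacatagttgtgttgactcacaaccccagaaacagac
Alas2: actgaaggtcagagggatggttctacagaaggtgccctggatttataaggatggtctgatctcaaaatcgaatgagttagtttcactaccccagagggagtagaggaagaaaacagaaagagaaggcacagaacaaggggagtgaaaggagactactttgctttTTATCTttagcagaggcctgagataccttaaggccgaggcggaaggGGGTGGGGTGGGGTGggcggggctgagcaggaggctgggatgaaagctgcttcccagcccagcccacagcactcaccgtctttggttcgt

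Each of the 3 windows held a GATA match and at least 1 CACCC match. Of all 32851 RefSeq windows of this length, 29.8% held a GATA match, 57.5% a CACCC match and 14.9% both. Of the 7 genes of the list, 5 were found in the RefSeq table. Hba-a1 and Hba-a2 shared an unbroken run of 297 of the 300 bases, and Hbb-bt, the other adult beta globin gene, held 3 CACCC matches and 0 GATA matches. A match is a description of the letters and shows no binding.

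Hba-a1 (gene at chromosome 11, from 32283511 to 32284465) had 3502, 2131, 5561, 3653 and 5190.4 counts in LFD, 13492, 3914, 3155, 5389 and 7305 in Obese and 1486, 1320.2, 1529.5, 1900.4 and 2047 in Control. Every LFD library was above every Control library, LFD 2 by a narrow margin, and LFD and Obese overlapped. LFD exceeded Control by 1.20 ± 0.32 (95% interval 0.54 to 1.86; adjusted p = 0.394), and it was positive in all 4 lanes (0.68 to 1.84). Obese minus Control was 1.81 (adjusted p = 0.00092) and LFD minus Obese -0.61 (adjusted p = 0.293).

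The other members, chosen for description after their values were seen, had a like pattern over libraries. Hbb-bs had 9578, 5326, 15548, 9690.3 and 13535 counts in LFD and 3799, 3403, 4668, 5160.3 and 5076 in Control, with no overlap (1.20 ± 0.32, 95% interval 0.54 to 1.87). Alas2 had 464, 196, 629.6, 359.8 and 513 counts in LFD and 153, 133, 143, 201 and 229.8 in Control, where LFD 2 lay within the Control range (1.15 ± 0.33). LFD 3 was the highest and LFD 2 the lowest of the 5 LFD libraries in each of these genes. Hba-a2 and Hbb-bt also had no overlap (1.07 and 1.22), and the copies of each globin are so alike that their reads may be shared, so that the 4 globin genes are not 4 separate observations. Slc4a1, the anion exchanger of the red cell membrane, differed by 1.05.

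Of the 7 genes 0 were called between LFD and Control, and all 7 had an unadjusted p under 0.05 (6.86% of all genes were higher at that level). In 4 all LFD libraries lay above all Control libraries, beside 1.16% of all genes. Those 4 are the globin genes, which are not separate observations, so their share cannot be set against that of all genes as 4 independent genes. The list median was 1.15, beside 0.01 for all genes, and it ran from 0.90 with the B cell covariate to 1.20 with the muscle covariate. Without LFD 1 it was 1.11. Between Obese and Control 6 of the 7 were called higher (9.44% of all genes) with a median of 1.73, and between LFD and Obese 0 were called and the median was -0.61. The endothelium list, of blood vessel genes, differed from Control by a median of 0.29, with 11 of 12 members above 0.

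**Figure D4:**
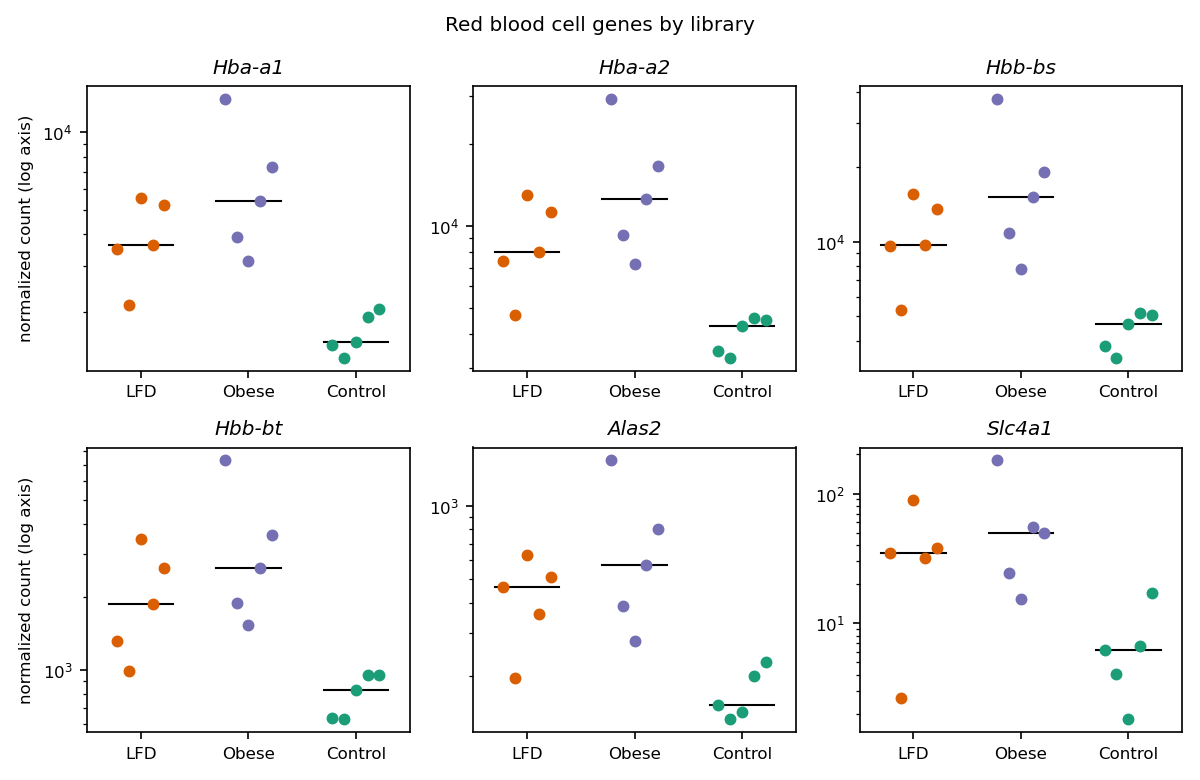
Normalized counts (log axis) of 6 red blood cell genes in LFD, Obese and Control, left to right; points are libraries and black lines are group medians. For Hba-a1, Hba-a2, Hbb-bs and Hbb-bt all 5 LFD points lie above all 5 Control points; for Alas2 and Slc4a1 LFD 2 lies among the Control points.

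Lymphoid and dividing-cell genes were on average lower in LFD, with LFD 1 the lowest library. Of 14 B cell genes 0 lay above 0, with a median of -1.72, and the median was -0.56 without LFD 1. Cxcr5, the chemokine receptor that brings B cells into follicles, had 16.5, 1214, 1384, 939.6 and 1352 counts in LFD and 2220.1, 2791, 1751, 1419 and 1827 in Control, so that the groups did not overlap even apart from LFD 1 (-1.68, 95% interval -4.27 to 0.92). It was the only 1 of the 14 without overlap, beside 1.57% of all genes with all LFD libraries below Control. At an unadjusted p under 0.05 there were 0 of the 14. Of 18 T and NK cell genes 2 lay above 0, with a median of -1.40, or -0.70 without LFD 1. None of these genes was called.

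Of 20 cell division genes 0 lay above 0, with a median of -0.58, and 7 had an unadjusted p under 0.05 (5.65% of all genes were lower at that level). Mki67, the proliferation antigen Ki-67 and chosen after its values were seen, had 551, 1861, 894, 1821 and 1712 counts in LFD and 2833, 5629, 1961, 1276 and 2195 in Control. Control 2 was the highest and LFD 1 the lowest library, and Control 4 lay among the LFD libraries. Pcna, the sliding clamp of DNA replication, had 1129, 1837, 1676, 1730.2 and 1823 counts in LFD and 2178, 2733, 1928, 1642 and 1999.8 in Control (-0.35, 95% interval -0.61 to -0.09). The list's mean was 7.12, 8.28, 7.85, 8.28 and 8.23 in LFD and 8.72, 9.31, 8.33, 7.90 and 8.44 in Control. With the B cell covariate the median was -0.35 and without LFD 1 it was -0.37, so the direction stayed at a smaller size.

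Genes of duct epithelium were near or above the Control level in LFD. Of 20 luminal genes 19 lay above 0, with a median of 0.41, or 0.23 without LFD 1, and 0 were called. Epcam, an epithelial adhesion protein chosen after its values were seen, had 6894, 2193, 4123, 4810.0 and 3690.1 counts in LFD, 1762, 1258, 1365, 1895 and 2105 in Obese and 4011, 1759, 2742, 3602 and 3266 in Control. LFD and Control overlapped (0.45, 95% interval -0.04 to 0.95), and every LFD library was above every Obese library (1.29, adjusted p = 0.00271). That call was lost in the fit of these groups alone and with the luminal covariate, whose list holds Epcam itself (0.28, adjusted p = 0.816). Foxa1, a luminal transcription factor, had 5211, 1165, 3805, 3065 and 3326 counts in LFD and 1090.2, 992, 1582, 2642 and 3311 in Control (0.79, 95% interval 0.10 to 1.48). Its call against Obese (1.28, adjusted p = 0.0237) was lost without any of LFD 1, 3, 4 and 5 and Obese 1 and 3 (up to 0.0662). It was also lost in the fit of these groups alone, without the libraries low in B cell genes and with the luminal covariate, whose list holds Foxa1 (up to 0.998). Basal epithelium genes had a median of 0.21, with 9 of 12 above 0, and the median was 0.02 without LFD 1.

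Muscle and matrix genes were uneven between libraries. All 15 skeletal muscle genes lay above 0 with a median of 1.99. Acta1, skeletal actin chosen after its values were seen, had 902, 577, 466, 228 and 4535 counts in LFD and 98.9, 186, 203, 423 and 91.9 in Control, with LFD 5 far above the others and LFD 4 within the Control range. The muscle list median was 0.03 with its own mean as a covariate, and the adipocyte and red cell medians under that covariate were 0.75 and 1.20. Of 25 collagen and matrix genes 22 lay above 0 with a median of 0.22, which was 0.01 without LFD 1 and 0.01 with the B cell covariate. Between Obese and Control 7 of these 25 were called higher (9.44% of all genes), and between LFD and Obese 4 were called lower (3.28%).

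**Figure D5:**
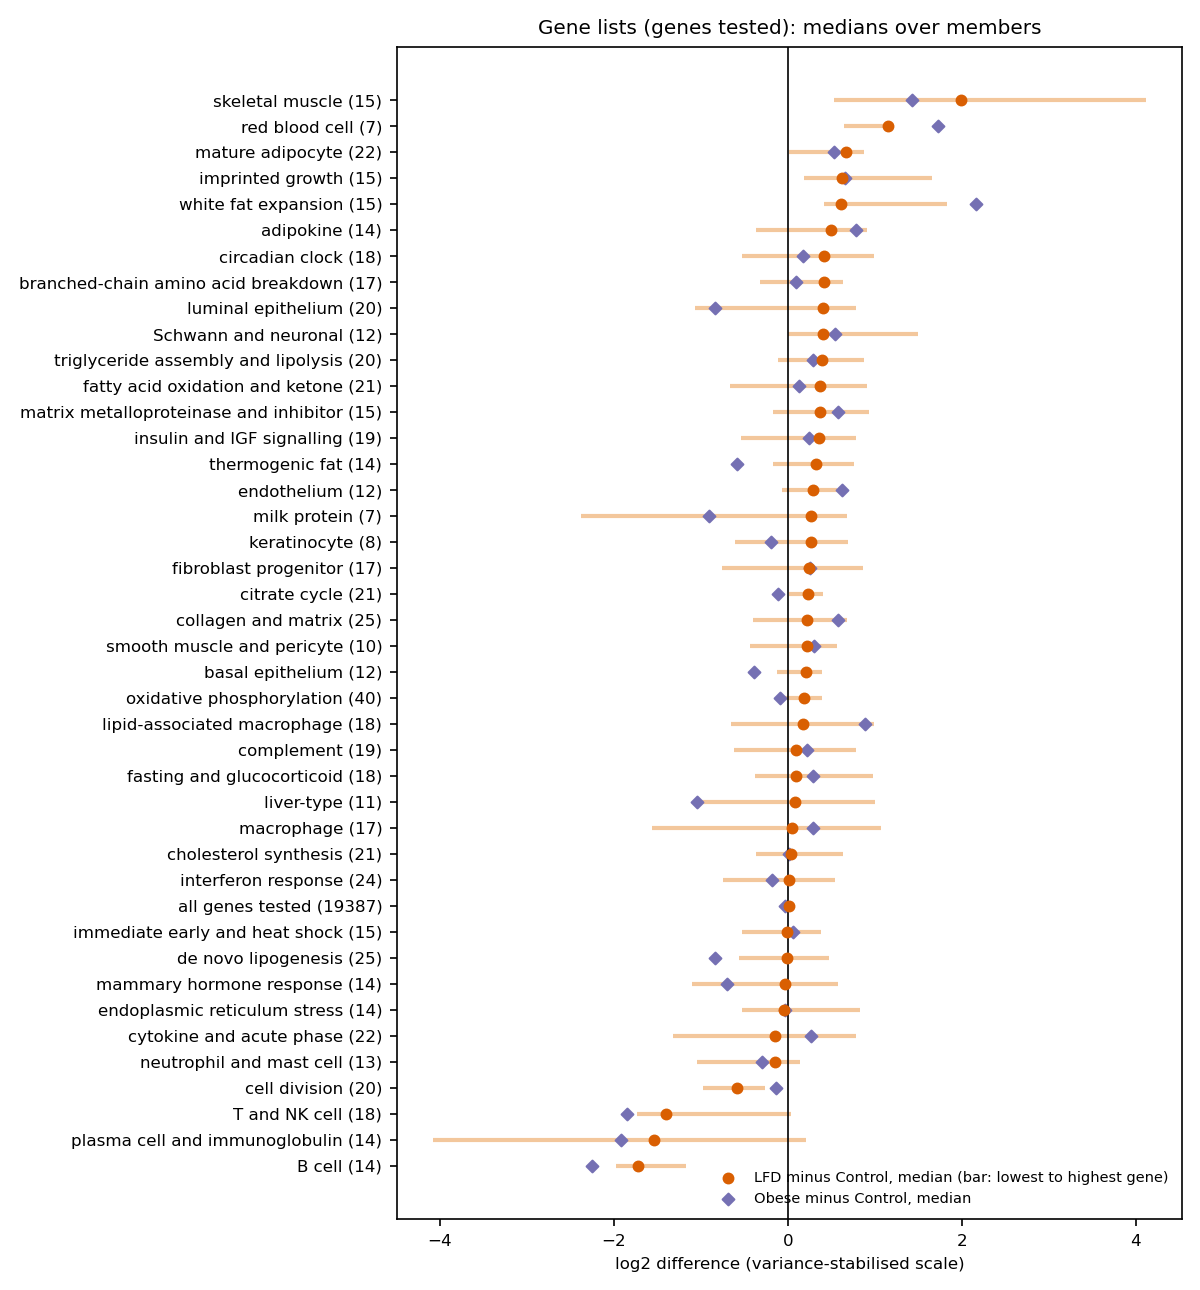
Median log2 difference from Control over the tested members of 41 gene lists and over all genes tested, for LFD (orange circle, with a bar from the lowest to the highest gene) and Obese (purple diamond); the number of genes is in brackets. The LFD medians run from -1.72 for B cell genes to 1.99 for skeletal muscle genes, with 0.01 for all genes.

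Genes with the smallest p-values between LFD and Control, taken by rule because none was called, ranged from small differences with low spread (Lnx2, Mapk12) to wide ones with wide spread (Crtac1, Ighv6-3). Lnx2, a ubiquitin ligase that binds Numb, had 1049, 949, 925, 1005 and 979 counts in LFD and 1277, 1271, 1134, 1311 and 1099.6 in Control, with no overlap (-0.30 ± 0.07, adjusted p = 0.394). Mapk12, the stress kinase p38 gamma, had 651, 685, 674, 646 and 636 counts in LFD and 481, 476, 578, 570.1 and 540.0 in Control, also with no overlap (0.31 ± 0.08, adjusted p = 0.394). Both differences came from libraries that agreed closely within each group. Acad11, an acyl-CoA dehydrogenase of long fatty acids, had 5058, 4107, 4522, 6621 and 6573 counts in LFD and 1797, 2129.9, 3633, 3818 and 3508 in Control, with every LFD library higher (0.88 ± 0.23, 95% interval 0.42 to 1.35).

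Crtac1, a secreted cartilage protein, had 423, 883, 487, 172 and 273 counts in LFD, 1913, 932, 1023, 717 and 1624 in Obese and 59.7, 97, 203, 289 and 66.5 in Control. LFD stood between Obese and Control, and LFD 4 and 5 lay below Control 4. LFD minus Control was 1.50 ± 0.38 (95% interval 0.72 to 2.28; adjusted p = 0.394), Obese minus Control 3.02 (adjusted p = 3.08e-05) and LFD minus Obese -1.52 (adjusted p = 0.0192). The last of these calls was lost without LFD 4, LFD 5, Obese 1 or Obese 5 (up to 0.0760) and under 3 other settings (up to 0.686).

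Kpna2, a nuclear import receptor, and Dennd4a, a Rab exchange factor, averaged lower in LFD than in both other groups. Kpna2 had 690.1, 896, 851, 913 and 893 counts in LFD, 1292, 1036, 1165, 1194 and 1301 in Obese and 1155, 1499.9, 1020.3, 989 and 1164 in Control. No LFD library reached the lowest Control or Obese library, with differences of -0.44 ± 0.11 from Control (adjusted p = 0.394) and -0.49 from Obese (adjusted p = 0.00949). Dennd4a differed by -0.58 ± 0.16 from Control (adjusted p = 0.394) and by -0.84 from Obese (adjusted p = 0.00378). Both calls against Obese were lost with the luminal covariate (0.638 and 0.777), and that of Kpna2 also in the fit of these groups alone and without the libraries low in B cell genes.

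The other genes named by this rule include Dcst2, a membrane protein gene, with 100.3 to 136 counts in LFD and 45.3 to 105 in Control (0.69 ± 0.17), and Ighv6-3, an antibody variable segment, with 1.95 to 41 counts in LFD and 48.4 to 362 in Control (-2.23 ± 0.62). Ighv6-3 had no overlap, and its lowest value was that of LFD 1, the library lowest in B cell RNA. Reads of antibody segments may be shared between near-identical copies. The rule also took 2 loci with no assigned gene name, which are counted and not described.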

How the data were processed

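RNA was measured in contralateral mammary fat of 29 mice in 6 groups. Per the labels' protocols, TRIzol-extracted total RNA was made into stranded total RNA libraries and sequenced as paired reads of 76 bases on a HiSeq 2000. Processing used the mm10 build, HTSeq 0.5.3p9, TopHat2 2.0.7 and DESeq2, per the submitters' processing notes. How reads were counted, and on which annotation, is not given in the sources used here. In the authors' deposited table, 30818 gene symbols have log2 values from 3.75 to 22.0. No source used here states the transform: undoing a variance-stabilising transform whose lowest value stands for 0 reads gave whole reads for 100% of values in every library, within a tolerance of 0.01. The deposited log2 values were therefore taken as variance-stabilised normalized counts, a scale that understates differences of low genes. A library's depth is its sum of recovered reads, and reads carry no molecular identifiers.

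Genes with a normalized count of 10 or more in at least 4 libraries were kept, 19387 in all. limma 3.58.1 (R 4.3.3, statmod 1.5.0) fitted 6 group means to the 29 libraries, using robust moderation and a trend of variance on mean. Tests were two-sided, with Benjamini-Hochberg adjustment over all genes kept and a threshold of 0.05; every adjusted p printed comes from limma. voom ran on the recovered reads as an alternative. Lanes come from the column headers. In 4 lanes both LFD and Control had a library, and within-lane differences are given without a test. LFD 5 and Control 4 had no library of the other group in their lane and are not in these differences. The fit was also run on simulated counts in which genes varied independently of each other. That run does not cover shifts of many genes in 1 library, such as those of lymphoid or muscle RNA.

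The comparison, the 41 gene lists and the genes named were chosen with earlier results of these data known. Genes are named by this rule: any gene called between LFD and Control, or the 5 with the smallest p in each direction where none was called, with a mean count of 50 or more; the list member with the smallest p; Mest, Lep, Adipoq, Adgre1; and the obesity-response genes, which earlier results chose by Obese against Control or LFD against Obese. Any other gene is said in the text to be chosen after seeing its values. Some genes that met the rule are left out of the text. Coordinates are those of GENCODE vM21 on GRCm38, which shares mm10 coordinates. Alternatives changed the filter, pseudocount, scaling, moderation, weights and libraries, or added lane or a marker list mean as a covariate.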

Additional observations from a re-analysis of the deposited data

Results flagged for a closer look

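The 86 genes taken by the rule or chosen later were looked at in both groups for a library whose gap to its nearest neighbour is large for the range of its group of 5. Of 172 such groups, 11 were picked out, where chance picks about 1 in 20. LFD 1 was the lowest LFD library for Cxcr5 (16.5 counts, the next 939.6), Cd28, a T cell receptor (116, the next 484), Cxcr2, a neutrophil chemokine receptor (28.2, the next 158), and Ighv6-3 (1.95, the next 24.3). It was also the lowest for Lyz2 (10428, the next 15730.2), Pcna (1129, the next 1676) and Kpna2 (690.1, the next 851). Without LFD 1 the Kpna2 difference from Control was -0.37. LFD 1 was the highest LFD library for Grb10, an adaptor that restrains insulin signalling (3609, the next 2828).

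LFD 5 was the highest LFD library for Calca, the calcitonin gene (168, the next 41). Control 1 was the highest of Control for Nfil3, a clock repressor (299, the next 256), and Control 2 the lowest for Nrxn3 (14.3, the next 428).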

How the results depend on the processing

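The LFD minus Control count of 0 was the same under all 24 alternatives. No paired analysis was possible by replicate number or animal, because replicate numbers were given in accession order and every library carries its own animal number. With lane as a term the counts were 0 for LFD minus Control, 1896 for Obese minus Control and 1041 for LFD minus Obese. The main limits are 5 libraries a group, the low lymphoid RNA of LFD 1, Obese 1 and Obese 5, and muscle RNA in 3 LFD libraries and in Obese 2.

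The Obese minus Control count of 2496 was 1082 in the fit of these groups alone, 1016 with the luminal covariate and 628 without the libraries low in B cell genes, and it ran from 1090 to 3377 when single libraries were left out. The LFD minus Obese count of 1159 was 3744 with array quality weights, 140 in the fit of these groups alone, 2528 with the B cell covariate, 9 with the luminal covariate and 171 without the libraries low in B cell genes, and it ran from 456 to 1634 when single libraries were left out. The fit of 2 groups alone rests on fewer libraries; the cause of the other shifts was not tested.

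Signs of small LFD minus Control differences turned, with causes not tested. With array quality weights the values were -0.28 for Mmp12, -0.18 for Atp6v0d2, -0.09 for Fasn, -0.22 for Acaca, -0.13 for Thrsp and -0.35 for Nrxn3. With lane as a term they were -0.09 for Itgad, -0.08 for Mmp12 and -0.08 for Atp6v0d2. With the B cell covariate they were -0.19 for Mmp12, -0.24 for Atp6v0d2, -0.04 for Acaca and -0.02 for Nrxn3, and with the luminal covariate -0.01 for Fasn, -0.09 for Acaca and -0.61 for Nrxn3. Without the libraries low in B cell genes they were -0.35 for Mmp12, -0.41 for Atp6v0d2, -0.27 for Nrxn3, 0.13 for Mup10 and 0.05 for Mup18. Atp6v0d2 was -0.12 with the muscle covariate and -0.01 with a pseudocount of 1. voom gave -0.02 for Fasn and -0.04 for Acaca, and quantile normalization -0.02 for Acaca.

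Leaving out single libraries gave LFD minus Control ranges of -0.01 to 0.52 for Itgad, -0.35 to 0.26 for Mmp12, -0.41 to 0.22 for Atp6v0d2, -0.01 to 0.50 for Gabrr2, -0.65 to 0.69 for Fasn, -0.57 to 0.48 for Acaca, -1.22 to 0.07 for Elovl6, -0.48 to 0.72 for Thrsp, -1.28 to 0.06 for Slc2a5, -0.65 to 0.73 for Nrxn3, -1.12 to 0.34 for Mup10 and -1.10 to 0.30 for Mup18. For LFD minus Obese, the luminal covariate gave -0.02 for Adipoq, -0.39 for Areg and -0.27 for Nrxn3, and Adipoq ran from -0.00 to 0.29 without single libraries.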

Other observations

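Imprinted growth genes were above Control in LFD on average. Of 15 tested, 15 lay above 0 with a median of 0.62 beside 0.01 for all genes, 4 of them at an unadjusted p under 0.05 (6.86% of all genes were higher at that level), and 0 were called. The median was 0.49 without LFD 1 and 0.36 with the B cell covariate. The list mean was 10.87, 10.04, 9.76, 9.72 and 9.81 in LFD 1 to 5, so that LFD 1 stood apart. LFD 3 and 4 lay below Control 3 (9.80). The list shares Mest, Peg10 and other members with the white fat expansion list. Grb10 had 3609, 2590.2, 2828, 2780.3 and 2770.0 counts in LFD and 1209.6, 1639, 2267, 2766 and 1829.9 in Control (0.62, 95% interval 0.13 to 1.11). Control 4 lay among the LFD libraries, which were otherwise the higher. Nap1l5, an imprinted gene outside the lists and chosen after its values were seen, had 331, 326, 412, 349.7 and 208 counts in LFD, 865, 378, 375, 300.3 and 593 in Obese and 135, 161, 216, 155 and 152 in Control. LFD 5 alone lay within the Control range, with a difference of 0.88 ± 0.24 (adjusted p = 0.394) and an Obese minus Control difference of 1.39 (adjusted p = 0.000814).

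Of 17 genes of branched-chain amino acid breakdown, 16 lay above 0 with a median of 0.42, and 9 were higher (6.86% of all genes) and 1 lower (5.65%) at an unadjusted p under 0.05. Ppm1k, the phosphatase that activates this pathway's dehydrogenase, was the lower one and the member below 0, at 837, 882, 1153, 955 and 1034 counts in LFD and 1130.0, 1443, 1071, 1130.2 and 1318 in Control (-0.32, adjusted p = 0.394). LFD 3 was the only LFD library above a Control library. The mean of the whole list was 10.58, 10.61, 11.43, 11.52 and 11.35 in Control 1 to 5 and ran from 11.26 to 11.63 in LFD. Control 1 and 2 thus stood apart, and Control 3, 4 and 5 lay within the LFD range. With the B cell covariate the list median was 0.27. Of 18 clock genes 14 lay above 0 (median 0.42), and Nfil3 was lower in every LFD library than in every Control library (-0.39, 95% interval -0.66 to -0.13; adjusted p = 0.394). Cholesterol synthesis genes had a median of 0.04, with 12 of 21 above 0.

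Interferon response genes had a median of 0.01, with 12 of 24 above 0. Cxcl10, the interferon-induced chemokine, had 135, 235, 205, 261 and 231 counts in LFD and 233, 379.8, 236, 535 and 575 in Control (-0.74, 95% interval -1.26 to -0.22; adjusted p = 0.394). Mmp11, a matrix protease of stromal cells, had 1135, 856, 877, 491 and 549 counts in LFD and 479.9, 223, 384, 554 and 378 in Control (0.90, 95% interval 0.19 to 1.61). Plasma cell and immunoglobulin genes had a median of -1.54 (-0.79 without LFD 1), adipokine genes 0.50, Schwann and neuronal genes 0.40 and matrix protease genes 0.37 (0.17 without LFD 1). In the remaining lists medians lay between -0.15 and 0.36, with 0 genes called.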
